A study of Homo sapiens with 16 samples.

Results

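The genes described here are the 6 members of the CCAAT/enhancer-binding protein (C/EBP) family listed in the deposited table, CEBPA, CEBPB, CEBPD, CEBPE, CEBPG and CEBPZ, out of 62700 genes in all. Each was found by matching its Ensembl identifier to its symbol, and each matched a single row. Of the 6 members, 5 reached a mean of 10 normalized counts and were tested together with the 14643 genes that did so, while CEBPE did not. The RNA came from OCI-AML3, a human acute myeloid leukemia cell line, and 16 RNA-seq libraries were compared. They comprised 4 Untreated libraries, 3 from cells treated with ATRA (all-trans retinoic acid, the natural ligand of the retinoic acid receptors) and 3 with AM80 (tamibarotene, a synthetic retinoid selective for the receptor RARA). In 6 further libraries, 3 for each retinoid, the compounds GSK-LSD1 and MB3 were given as well. GSK-LSD1 inhibits the lysine demethylase LSD1 and MB3 inhibits the acetyltransferase GCN5, and both together are called the inhibitors below. Per the methods of the study the treatment lasted 3 h. Either retinoid and GSK-LSD1 were used at 0.1 µM each, and MB3 was used at 100 µM. No library with the inhibitors and without a retinoid was analysed here, so an effect of the inhibitors is always an effect on top of a retinoid. All libraries are from 1 cell line, and nothing says whether the replicates came from separate cultures, so p-values measure the spread between these libraries only, which may be technical.

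C/EBP proteins are transcription factors of the basic leucine zipper (bZIP) class, which bind DNA as dimers with each other or with related bZIP proteins. C/EBPα, encoded by CEBPA, drives the step from progenitors to granulocytes and monocytes and slows the cell cycle. C/EBPβ can stand in for it when myeloid output has to rise, C/EBPδ responds to inflammation, C/EBPε completes granulocyte maturation, and C/EBPγ lacks an activation domain and acts mainly as a dimer partner. CEBPZ shares the name because its product was described as binding CCAAT sequences, but it is not a bZIP protein and has a role in ribosome formation.

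Depth was between 11963898 and 33789718 reads per library. All 8 myeloid marker genes were tested and their summed level was between 31141 and 37483 normalized counts in every library, whereas of 6 lymphoid and 6 erythroid or megakaryocytic markers 2 each were at 0 in all libraries, and the summed levels were at most 97.6 and 41.2. Of 5 epithelial, stromal and endothelial markers 2 were tested, and PECAM1, which myeloid cells express too, made up most of their summed level of 1050 to 2850. AM80 replicate 2 and Untreated replicate 4 stood apart from their groups. Against its group, AM80 replicate 2 held fewer reads of GC-rich genes (log2 deviation of GC-rich minus GC-poor genes -0.37), while Untreated replicate 4 (0.21) and AM80 replicate 3 (0.26) held more. This bears on CEBPA, CEBPB and CEBPD, whose exons are 65.9%, 66.2% and 70% GC and lie above 97.9%, 98% and 99.7% of tested genes. CEBPG (43.9%) and CEBPZ (39.6%) are not GC-rich.

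Levels can be compared between genes only per length, here as normalized counts per kb of merged exons. In untreated cells CEBPA was the most abundant member (2438 ± 415 per kb, SD, n = 4), above 98.6% of tested genes. CEBPD (797 ± 161), CEBPZ (663 ± 26.2), CEBPG (484 ± 15.9) and CEBPB (452 ± 112) followed, and CEBPE was last (2.88 ± 1.92). CEBPD overlapped with CEBPZ, and CEBPG with CEBPB, so neither pair has an order beyond its spread, whereas all 4 CEBPA libraries (2080 to 3030) lay above every library of the other members. With ATRA the order of levels became CEBPA (2684 ± 192), CEBPB (1294 ± 102), CEBPD (660 ± 79.2), CEBPZ (605 ± 54.7) and CEBPG (445 ± 25.8), and with AM80 CEBPB was likewise second (1321 ± 279). CEBPD and CEBPZ overlapped in both retinoid groups. With the inhibitors added, CEBPA (1533 ± 183 with ATRA and 1779 ± 130 with AM80) and CEBPB (1357 ± 97.1 and 1571 ± 201) came close to each other. Their ranges over libraries overlapped in both groups, while within each of the 6 libraries CEBPA was the higher of the pair, by a ratio of 1.02 to 1.2.

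**Figure D1:**
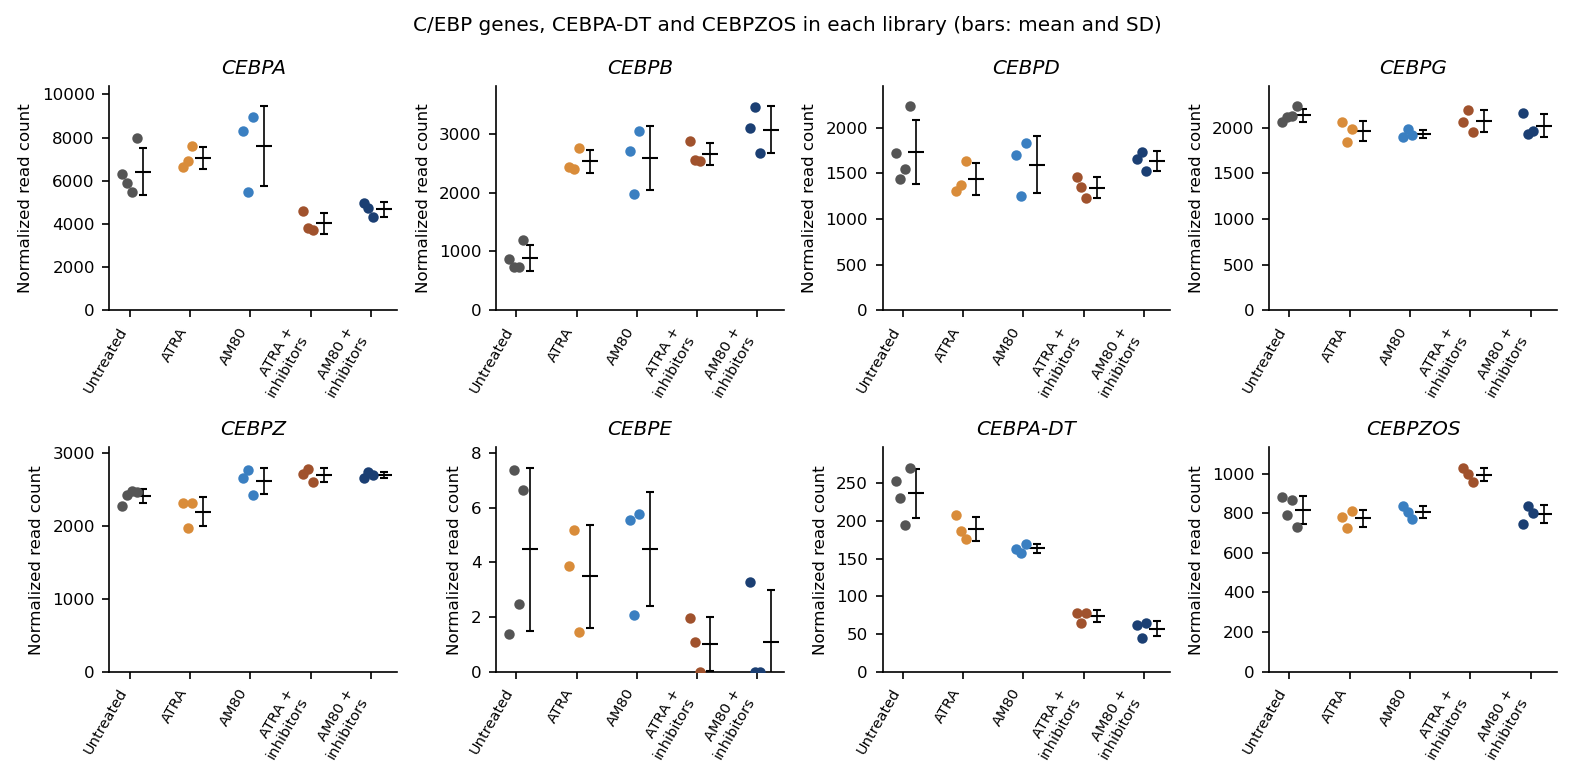
Normalized read counts (y axes, linear and starting at 0) of the 6 C/EBP genes, CEBPA-DT and CEBPZOS in each of the 16 libraries (points) by group, with mean and SD beside them. CEBPB is higher in every treated library than in every untreated one, CEBPA and CEBPA-DT are lowest with the inhibitors, and CEBPE stays under 8 normalized counts.

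CEBPB (ENSG00000172216.6, GRCh38, chromosome 20, 50190734 to 50192689, plus strand) is a gene without introns that encodes C/EBPβ. It was the only member called higher with the retinoids. Its proximal promoter is shown because CEBPB carried the largest change of the family. The sequence is the 250 bases before the first of 2 start sites in RefSeq (GRCh38.p14, chr20:50190333-50190582, plus strand), with matches to the letters searched in capitals.
CEBPB promoter: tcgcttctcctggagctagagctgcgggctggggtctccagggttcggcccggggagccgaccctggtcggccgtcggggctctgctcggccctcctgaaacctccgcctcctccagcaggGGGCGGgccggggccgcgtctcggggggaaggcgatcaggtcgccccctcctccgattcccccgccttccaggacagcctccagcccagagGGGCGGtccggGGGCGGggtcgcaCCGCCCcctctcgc
All capitals mark GGGCGG, the GC box, which occurred 4 times, at 129 to 124, 38 to 33, 27 to 22 and 14 to 9 bases before the start, the last on the minus strand. Both strands were also searched for AGGTCA, the core letters of retinoic acid receptor sites, for its variant with G in first place, GGGTCA, and for the direct repeat of the first of these spaced by 5 bases. Further searches were for the C/EBP palindrome TTGCGCAA, its form with an open centre, TTGCNNCAA, the CCAAT box, the E-box CACGTG and the cAMP response element TGACGTCA. None of these letters occur in the window, and nothing follows from that about the factors that bind there. The window of the other start site, not shown, holds a CCAAT box at 245 to 241 bases before that site and 5 GC boxes. Of 34788 promoter windows of this length in RefSeq, 42.6% hold the GC box, 12% the receptor letters, 12.1% their variant, 0.00287% the repeat, 0.132% the C/EBP palindrome, 1.64% its open form, 32% the CCAAT box, 6.31% the E-box and 1.64% the cAMP response element. The window is 75.6% GC and holds 25 CpG dinucleotides, against a median of 11.

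In untreated cells CEBPB was at 872, 732, 735 and 1200 normalized counts. With ATRA it was at 2430, 2404 and 2761, and with AM80 at 2715, 1984 and 3051. Every retinoid library therefore lay above every untreated one, and the highest untreated value and the lowest and highest AM80 values belong to the 3 libraries with the largest GC deviations, Untreated replicate 4 and AM80 replicates 2 and 3. The rise was 2.91-fold with ATRA (log2 fold change 1.54 ± 0.15, SE, adjusted p = 4.9e-08, limma) and 2.93-fold with AM80 (1.55 ± 0.15, adjusted p = 4.2e-08). Both comparisons use the same untreated libraries. A gene was called when its Benjamini-Hochberg adjusted p was under 0.05 and it changed by over 1.5-fold. By that rule 1 of the 5 tested members was higher with ATRA and 1 with AM80, where 6.52% and 6.41% of all tested genes were higher. In bulk RNA, a change in the number of cells that express a gene and a change in its RNA per cell cannot be told apart.

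Adding the inhibitors left CEBPB at 2873, 2556 and 2534 normalized counts with ATRA and at 3099, 3454 and 2668 with AM80, which overlapped with the retinoids alone. The difference was 0.07 on the log2 scale for ATRA (95% confidence interval -0.26 to 0.40, adjusted p = 0.74, limma) and 0.27 for AM80 (-0.06 to 0.59, adjusted p = 0.19). Against untreated cells CEBPB was 3.06-fold higher with ATRA and the inhibitors (log2 1.61 ± 0.15, adjusted p = 1.1e-08) and 3.53-fold higher with AM80 and the inhibitors (1.82 ± 0.15, adjusted p = 1.8e-09). In all 4 comparisons against untreated cells the call held under all 27 settings tried, the one reported included. When a trend with GC content was removed from each library, the effect of the inhibitors on CEBPB became 0.57 with ATRA (adjusted p = 0.00011) and 0.43 with AM80 (adjusted p = 0.0013), still within 1.5-fold.

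CEBPB-AS1, whose annotation on the minus strand overlaps CEBPB by 765 bases, was at 15.4 to 35.3 normalized counts in all libraries. It did not pass the test in any of the 9 comparisons, and its values of 23.1 with ATRA and 26.8 with AM80 (means, n = 3) lay close to the untreated mean of 26.2 (n = 4). The strand setting of the counting is not given in the sources used here, so reads of such overlapping pairs may not be separated.

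CEBPA (ENSG00000245848.3, GRCh38, chromosome 19, 33299934 to 33302564, minus strand) also lacks introns and encodes C/EBPα. It was not called with either retinoid and fell when the inhibitors were added. Its promoter is shown because CEBPA-DT (ENSG00000267296.2), a noncoding transcript that starts 293 bases away on the other strand, shares it and fell as well. These are the 250 bases before the RefSeq start (GRCh38.p14, chr19:33302535-33302784), read on the minus strand toward CEBPA.
CEBPA promoter: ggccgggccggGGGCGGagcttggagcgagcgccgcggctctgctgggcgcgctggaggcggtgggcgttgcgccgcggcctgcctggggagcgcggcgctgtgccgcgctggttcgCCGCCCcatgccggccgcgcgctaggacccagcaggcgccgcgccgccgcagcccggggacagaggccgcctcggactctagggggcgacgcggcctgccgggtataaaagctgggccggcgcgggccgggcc
The capitals again mark GGGCGG, at 239 to 234 bases before the start and, on the opposite strand, at 133 to 128. No other motif named for CEBPB was found in these 250 bases. The corresponding window of CEBPA-DT shares 214 bases with it, and its remaining bases add a CACGTG at 22 to 17 bases before the CEBPA-DT start. The CEBPA window is 81.2% GC with 41 CpG dinucleotides.

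CEBPA was at 6300, 5913, 5472 and 7972 normalized counts in untreated cells. ATRA gave 6635, 6929 and 7621, and AM80 gave 8325, 5478 and 8960. Both groups overlapped with the untreated libraries, and the differences of 0.15 (95% confidence interval -0.13 to 0.43, adjusted p = 0.47, limma) and 0.22 (-0.06 to 0.51, adjusted p = 0.23) on the log2 scale did not pass the test. Without AM80 replicate 2 and Untreated replicate 4, CEBPA was higher with AM80 by 0.55 on the log2 scale (adjusted p = 1.5e-06), which is still within 1.5-fold. Over the 27 settings tried (limma, edgeR and DESeq2), the difference was above 0 throughout and called in 0. It ran from 0.08 to 0.26 with ATRA (adjusted p from 0.0048 to 0.73) and from 0.09 to 0.55 with AM80 (adjusted p from 1.5e-06 to 0.69). Some settings thus passed the adjusted p. No member was called lower with either retinoid, against 2.94% of all tested genes with ATRA and 3.76% with AM80. With each retinoid edgeR and DESeq2 also called 1 member in either direction, which was CEBPB, called higher.

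With the inhibitors added, CEBPA was at 4589, 3797 and 3715 normalized counts with ATRA and at 4990, 4739 and 4315 with AM80. All 6 libraries lay below all untreated and all retinoid libraries. CEBPA fell by 0.81 on the log2 scale on adding the inhibitors to ATRA (SE 0.15, 0.57 of the level with ATRA alone, adjusted p = 0.00012, limma) and by 0.67 on adding them to AM80 (SE 0.15, 0.63 of the level with AM80 alone, adjusted p = 0.001). It was thus 1 of 5 tested members called lower in each comparison, against 11.4% and 8.9% of all tested genes, and no member was called higher, against 8.15% and 6.81%. Against untreated cells it fell by 0.66 with ATRA and the inhibitors (SE 0.14, adjusted p = 0.0003), which was called, and by 0.44 with AM80 and the inhibitors (SE 0.14, adjusted p = 0.0092), which was within 1.5-fold. There 1 member was higher in each comparison, against 14.2% and 12.9% of all genes, and 1 and 0 members were lower, against 14.8% and 13.1%.

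The size of this fall changed with removal of a GC trend and with single libraries. The trend was fitted to each library's deviation from the mean over all libraries. Its removal therefore also takes out any treatment response shared by genes of like GC content. Such a response and a technical trend cannot be told apart here. GC-rich genes as a whole were lower when the inhibitors were added, since the median over the 1430 tested genes with the highest GC content, above 61.3%, was -0.47 with ATRA and -0.12 with AM80. After removal of the GC trend, CEBPA fell by 0.31 on adding the inhibitors to ATRA (adjusted p = 0.0023) and by 0.5 on adding them to AM80 (adjusted p = 1.9e-05), both past the adjusted p and within 1.5-fold, while against untreated cells the fall of 0.11 with ATRA and the inhibitors did not pass the test (adjusted p = 0.17). The call with AM80 was lost without AM80 replicate 1 (-0.58) or AM80 replicate 3 (-0.53) and was larger without AM80 replicate 2 (-0.89), and the call of ATRA and the inhibitors against untreated cells was lost without Untreated replicate 4 (-0.55). With AM80 and the inhibitors against untreated cells, CEBPA ran from -0.66 to -0.13 over the 27 settings tried (limma, edgeR and DESeq2). Adjusted p ran from 0.00016 to 0.13, and 1 setting gave a call.

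CEBPA-DT fell further than CEBPA. It was at 252, 230, 194 and 270 normalized counts in untreated cells, at 207, 186 and 176 with ATRA and at 163, 158 and 170.0 with AM80. With ATRA and the inhibitors it was at 78.1, 65.2 and 78.4, and with AM80 and the inhibitors at 61.4, 45.4 and 64.4, below every other library. The fall on adding the inhibitors was 1.35 on the log2 scale with ATRA (SE 0.14, adjusted p = 3e-07, limma) and 1.52 with AM80 (SE 0.14, adjusted p = 6.1e-08), and it was 0.98 and 1.41 after removal of the GC trend, past both limits of the call. With the retinoids alone the falls of 0.31 (adjusted p = 0.099) and 0.52 (adjusted p = 0.0055) were within 1.5-fold. As a share of the CEBPA count in the same library, CEBPA-DT went from 3.71% ± 0.29 (SD, n = 4) in untreated cells to 2.71% ± 0.41 with ATRA and 2.25% ± 0.55 with AM80, and to 1.84% ± 0.23 with ATRA and the inhibitors and 1.23% ± 0.27 with AM80 and the inhibitors (n = 3 each). The 2 annotations do not overlap each other. CEBPA is overlapped on the plus strand by 2 transcripts without a symbol, ENSG00000267580 (1235 bases) and ENSG00000267727 (662 bases). Both had a mean of 0 normalized counts. If the counting ignored strand, reads in these stretches may not be assigned to CEBPA, so its level and this share may depend on the strand setting.

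**Figure D2:**
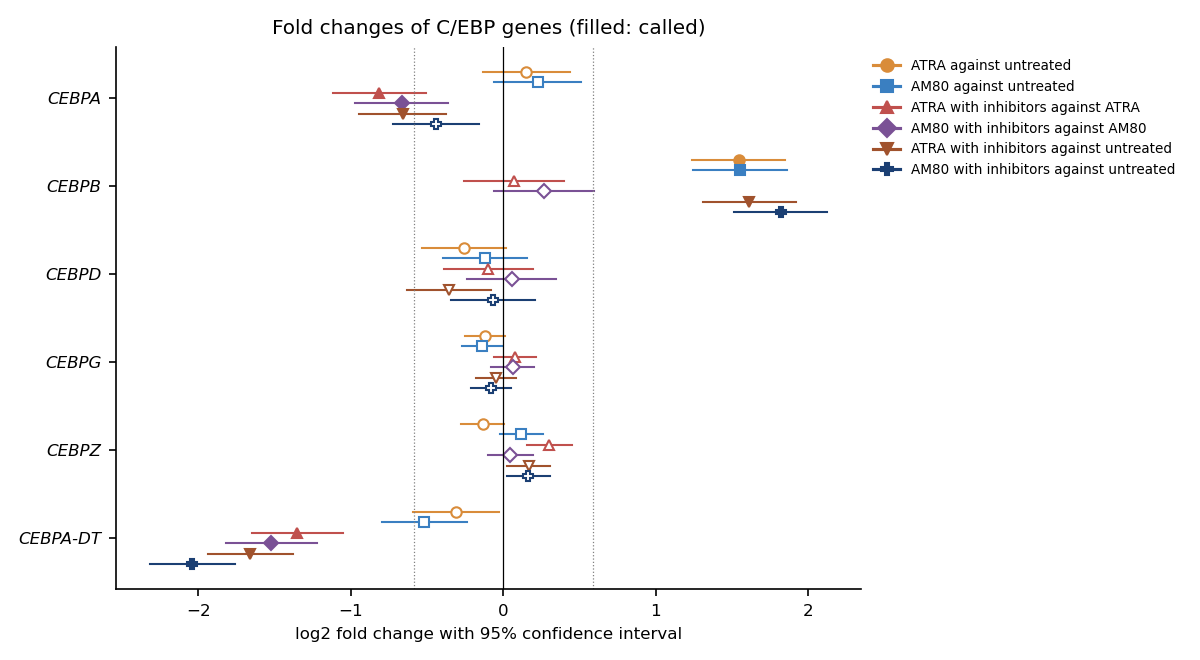
Log2 fold changes (x axis) with 95% confidence intervals of the 5 tested C/EBP genes and CEBPA-DT in 6 comparisons, filled where called and with dotted lines at 1.5-fold. CEBPB lies to the right in all 4 comparisons against untreated cells and near 0 on adding the inhibitors, CEBPA and CEBPA-DT lie to the left where the inhibitors were added, and CEBPD, CEBPG and CEBPZ stay within 1.5-fold.

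The ratio of CEBPA to CEBPB per kb within each library joins both changes. It was 5.46 ± 0.44 in untreated cells (n = 4), 2.07 ± 0.06 with ATRA and 2.17 ± 0.11 with AM80 (n = 3 each), and 1.13 ± 0.05 and 1.14 ± 0.1 with the inhibitors added. The untreated ratios of 4.94 to 6 lay above the retinoid ratios of 2.03 to 2.28, and these above the ratios of 1.02 to 1.2 with the inhibitors. Both genes have nearly the same GC content (65.9% and 66.2%). Of the summed level of the 6 members per kb, CEBPA made up 50.3% ± 1.59 in untreated cells and 32.4% ± 1.6 with ATRA and the inhibitors, while CEBPB went from 9.26% ± 0.92 to 28.8% ± 0.52.

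**Figure D3:**
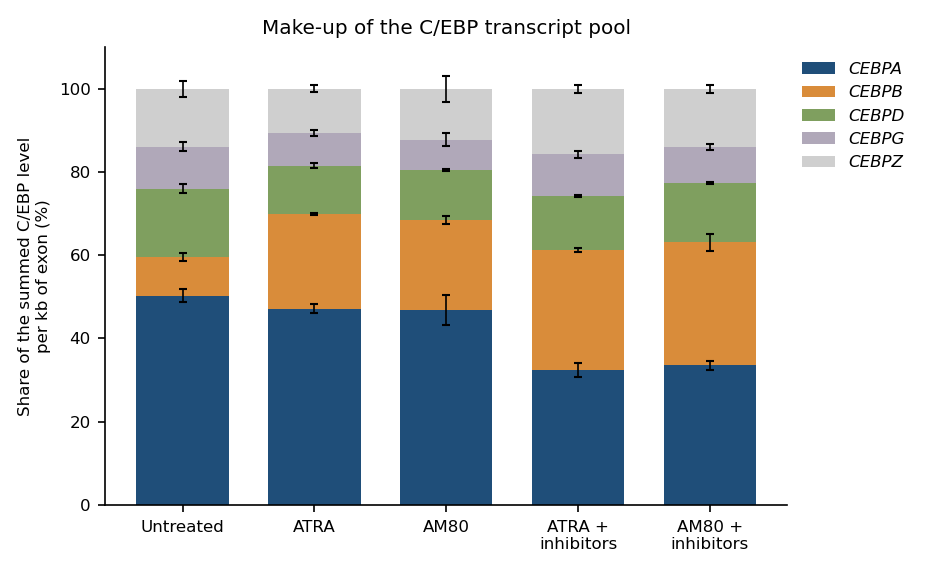
Mean share (y axis, percent) of each member in the summed C/EBP level per kb of exon by group, stacked, with the SD of each member's share at the top of its bar segment. The CEBPB segment grows from 9.26% in untreated cells to 22.7% with ATRA and 21.6% with AM80, the CEBPA segment shrinks with the inhibitors, and CEBPE, at a mean of at most 0.0591%, is not drawn.

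CEBPD (ENSG00000221869.5, GRCh38, chromosome 8, 47736909 to 47739086, minus strand) encodes C/EBPδ. It was at 1721, 1443, 1548 and 2232 normalized counts in untreated cells, 1307, 1373 and 1634 with ATRA and 1705, 1247 and 1833 with AM80. The inhibitors gave 1455, 1345 and 1224 with ATRA and 1660, 1732 and 1520 with AM80. All 4 treated groups overlapped with the untreated libraries. The difference of ATRA with the inhibitors from untreated cells was -0.35 on the log2 scale (95% confidence interval -0.63 to -0.08, adjusted p = 0.025, limma), past the adjusted p but within 1.5-fold. After removal of the GC trend its sign turned (0.36, adjusted p = 0.00022), so no direction is given for CEBPD. The confidence intervals in the other 5 comparisons with untreated or retinoid cells reached from -0.53 to 0.35.

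CEBPG (ENSG00000153879.9, GRCh38, chromosome 19, 33373330 to 33382686, plus strand), which lies on the same chromosome arm as CEBPA, encodes the dimer partner C/EBPγ and was the steadiest member. Its 16 values were between 1837 and 2231 normalized counts, at a mean of 2134 ± 70.2 (SD, n = 4) in untreated cells and of 1962 ± 114 with ATRA and 1933 ± 42.2 with AM80 (n = 3 each). All 6 retinoid libraries lay below the untreated ones, by 0.12 (adjusted p = 0.17, limma) and 0.14 (adjusted p = 0.097) on the log2 scale. Across the 6 comparisons with untreated or retinoid cells the 95% confidence intervals ran from -0.27 to 0.22, inside 1.5-fold on both sides.

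CEBPZ (ENSG00000115816.15, GRCh38, chromosome 2, 37201612 to 37231713, minus strand) was at 2269, 2417, 2480 and 2458 normalized counts in untreated cells, 2308, 1966 and 2311 with ATRA, and 2656, 2771 and 2420 with AM80. With the inhibitors it was at 2713, 2781 and 2599 with ATRA and at 2656, 2741 and 2693 with AM80, all 6 above the untreated libraries. Adding the inhibitors to ATRA raised it by 0.30 on the log2 scale (SE 0.07, adjusted p = 0.0017, limma), past the adjusted p but within 1.5-fold, and adding them to AM80 by 0.05 (adjusted p = 0.64). The rise with ATRA was 0.01 (adjusted p = 0.89) under the setting that lowered it most. That setting was the removal of the GC trend. CEBPZ is GC-poor, and the median over the 1429 genes of its class of GC content, 38.5% to 40.9%, was 0.25 in this comparison.

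The span of CEBPZ, introns included, overlaps that of CEBPZOS on the plus strand by 14582 bases, and that of NDUFAF7 by 83 bases at the start of CEBPZ. Merged exons are 3629 bases for CEBPZ and 4698 for CEBPZOS, so the overlap of their exons is smaller. A transcript inside CEBPZ without a symbol (ENSG00000272054) was not called in any comparison. CEBPZOS was higher by 0.36 (adjusted p = 0.0008) on adding the inhibitors to ATRA, from a mean of 773 to 995 normalized counts, and NDUFAF7 by 0.23 (adjusted p = 0.044). On adding the inhibitors to AM80 the differences were -0.02 (adjusted p = 0.87) and 0.06 (adjusted p = 0.67). The exons of CEBPZOS are 36.6% GC. Over the 1430 genes with the lowest GC content, up to 38.5%, the median was 0.32 on adding the inhibitors to ATRA. Against untreated cells NDUFAF7 rose with ATRA by 0.24 (adjusted p = 0.047, limma) and with AM80 by 0.41 (adjusted p = 0.0009). All of these changes were within 1.5-fold, and reads of the 3 genes may not be separated if the counting ignored strand.

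CEBPE (ENSG00000092067.7, GRCh38, chromosome 14, 23117304 to 23119616, minus strand), which encodes the factor of late granulocyte maturation C/EBPε, was close to the limit of detection. It had 1, 8, 2 and 6 reads in the untreated libraries, 4, 6 and 2 with ATRA, and 6, 4 and 8 with AM80. With the inhibitors it had 2, 1 and 0 reads with ATRA and 3, 0 and 0 with AM80, all at or under the floor of 3 reads that a count of 0 allows. CEBPE was left out of the test by the filter on low values, and no fold change is given.

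ATRA and AM80, given at the same dose for the same time, were compared directly in 2 pairs of groups. No member was called in either pair, although the libraries of CEBPZ did not overlap between AM80 and ATRA, nor those of CEBPD between the groups with inhibitors. AM80 minus ATRA was between -0.02 and 0.25 on the log2 scale over the 5 tested members, and the widest intervals, those of CEBPB (-0.32 to 0.34) and CEBPA (-0.23 to 0.38), stayed inside 1.5-fold. CEBPZ was the only member with an unadjusted p under 0.05 (0.25, 95% confidence interval 0.11 to 0.4, adjusted p = 0.12, limma). Of all 14643 tested genes, 2042 had an unadjusted p under 0.05 in this comparison. No member was called by limma, edgeR or DESeq2, where limma called 0.0478% of all genes. With the inhibitors the differences were between -0.03 and 0.29, with the upper limits for CEBPD (0.58), CEBPB (0.53) and CEBPA (0.52) near 1.5-fold and adjusted p of 0.28 or more. Here 0% of all genes were called by limma, 2656 had an unadjusted p under 0.05 and none of them was a member, and DESeq2 called 13 genes and edgeR 0. Whether the inhibitors acted differently on top of AM80 than of ATRA was tested as an interaction. It was 0.15 for CEBPA (95% confidence interval -0.28 to 0.57, adjusted p = 0.75) and 0.2 for CEBPB (-0.27 to 0.66, adjusted p = 0.68), and limma called 0% of all genes, with 2211 at an unadjusted p under 0.05, 1 of them a member (CEBPZ, -0.25, adjusted p = 0.26). DESeq2 called 6 genes for this interaction and edgeR 0, none of them members.

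**Figure D4:**
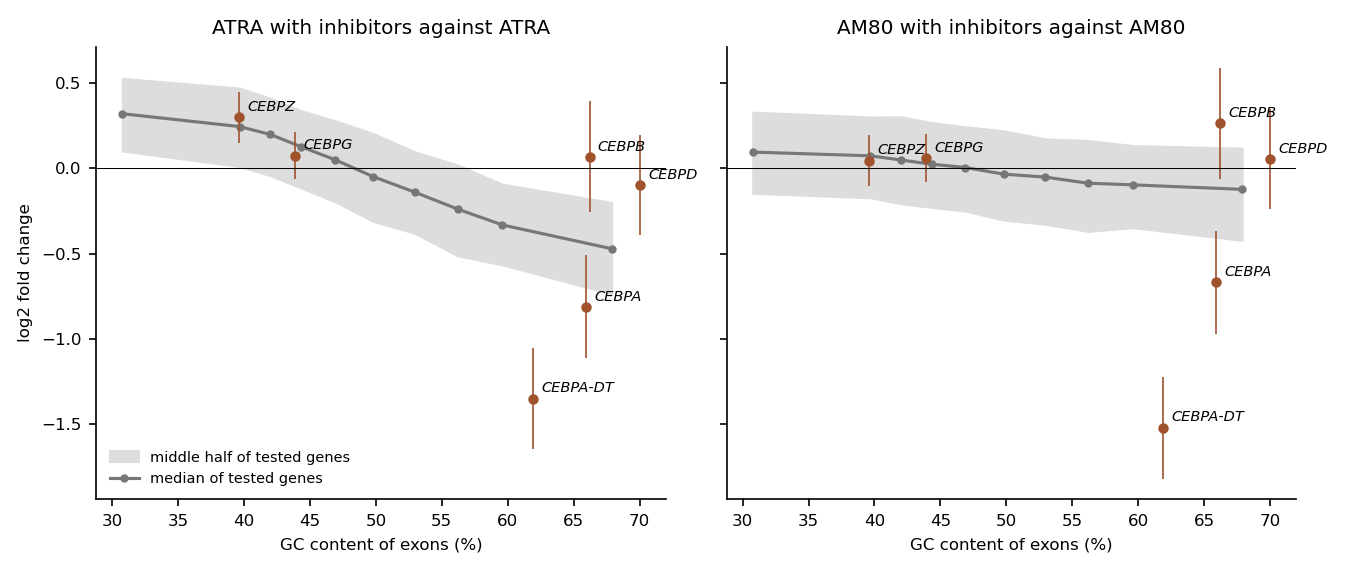
Log2 fold change (y axis) on adding the inhibitors to ATRA (left) and AM80 (right) against GC content of exons (x axis, percent). The grey line and band give the median and interquartile range of tested genes in 10 equal classes of GC content, and points with 95% confidence intervals are C/EBP genes and CEBPA-DT. The median falls from 0.32 to -0.47 with ATRA, CEBPA lies below it in both panels, and CEBPB and CEBPD lie above it.

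The following lists of genes around the family were chosen with results of these data known, so they describe the setting and support nothing beyond it. Of 15 bZIP genes whose products can pair with C/EBP proteins or bind related sites, 14 were tested, 2 were higher and 4 lower with ATRA, and 4 were higher and 5 lower with AM80. Of all tested genes 6.52% were higher and 2.94% lower with ATRA, and 6.41% and 3.76% with AM80. The median log2 fold changes were -0.29 and -0.17, against -0.02 and -0.01 over all tested genes. On adding the inhibitors, 3 were higher in both comparisons, and 2 with ATRA and 1 with AM80 were lower, where 8.15% and 6.81% of all tested genes were higher and 11.4% and 8.9% lower. These background shares hold for the lists that follow as well.

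DDIT3, which encodes CHOP, a C/EBP-like partner that keeps C/EBP dimers from their usual sites, rose in both steps. It was at 146 to 207 normalized counts in untreated cells, 292 to 307 with ATRA, 289 to 351 with AM80, and 511 to 665 and 704 to 770 with the inhibitors added, with no overlap between these steps. The log2 fold changes were 0.79 and 0.88 with ATRA and AM80 (adjusted p = 8.5e-06 and 1.9e-06, limma) and 0.95 and 1.23 on adding the inhibitors (adjusted p = 1.6e-06 and 5.9e-08). ATF4, the stress factor that can bind composite sites with C/EBP proteins, was at 2618 to 3991 normalized counts throughout and was not called in these 4 comparisons, with the largest difference with ATRA alone (-0.26, adjusted p = 0.024).

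The AP-1 members went separate ways. FOSL2 fell with the retinoids by 1.65 and 1.80 on the log2 scale, JUND rose by 0.89 and 0.92, and JUN fell by 1.23 and 1.08 and rose by 1.36 and 1.85 on adding the inhibitors. TEF, a PAR-type bZIP factor, fell by 0.68 and 0.93 with the retinoids. On adding the inhibitors NFIL3, a bZIP repressor, rose by 0.76 and 0.82, and BATF, which pairs with JUN proteins, fell by 0.97 and 1.17. All of these were called in both comparisons of the pair.

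TRIB1 and TRIB2 encode pseudokinases that bring C/EBPα to the ubiquitin ligase COP1 for breakdown. They moved in opposite directions. TRIB1 went from 71.1 to 90.8 normalized counts in untreated cells to 265 to 275 with ATRA and 251 to 270 with AM80, and on to 528 to 560 and 489 to 592 with the inhibitors, with no overlap between the steps. Its log2 fold changes were 1.69 and 1.64 with the retinoids (SE 0.09, adjusted p = 5.7e-12 and 1e-11, limma) and 1.01 and 1.04 on adding the inhibitors (SE 0.1, adjusted p = 1.1e-07 and 7.2e-08). TRIB2 fell from 756 to 789 normalized counts to 336 to 374 with ATRA and 335 to 340 with AM80 (log2 fold changes -1.14 and -1.20) and did not pass the call on adding the inhibitors. TRIB3 fell by 0.76 and 0.73 with the retinoids, and on adding the inhibitors it was higher by 0.49 with ATRA (adjusted p = 0.015, within 1.5-fold) and by 1.13 with AM80 (adjusted p = 1e-05). Of the 4 genes of this list, 1 was higher and 2 lower with each retinoid, where 6.52% (ATRA) and 6.41% (AM80) of all tested genes were higher and 2.94% and 3.76% lower. With the inhibitors added, 1 was higher with ATRA and 2 with AM80. The remaining gene, COP1, was not called in these 4 comparisons. Protein levels were not measured in these libraries.

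Genes commonly given as C/EBP targets were listed by kind. Of 10 monocyte and inflammatory targets 8 were tested. On adding the inhibitors 5 were higher with ATRA and 4 with AM80, where 8.15% and 6.81% of all tested genes were higher, with medians of 1.12 and 1.21 against -0.02 and -0.01 over all tested genes. CXCL8, a neutrophil chemokine, rose by 2.69 and 2.50, IL1B by 2.11 and 2.22 and TNF by 1.76 and 1.94. S100A8 and S100A9, which encode calprotectin and belong to the same list, were lower with ATRA (log2 fold changes -0.41 and -0.35, adjusted p = 0.013 and 0.03) and also with AM80 (-0.44 and -0.42, adjusted p = 0.011 and 0.012), all within 1.5-fold. CXCL8 was at 3166 to 3632 normalized counts in untreated cells, at 1735 to 2389 with ATRA and at 11501 to 17346 with ATRA and the inhibitors. With the retinoids alone 2 (ATRA) and 1 (AM80) were lower, in both cases including IL1RN, the antagonist of interleukin 1, by 0.74 and 0.70.

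Of 4 receptor targets 3 were tested, and 1 was lower on adding the inhibitors to each retinoid, where 11.4% (ATRA) and 8.9% (AM80) of all tested genes were lower. This was CSF1R, the receptor of monocyte growth factor, which was at 291 to 323 normalized counts in untreated cells, 333 to 391 with the retinoids and 186 to 230 with the inhibitors. It fell by 0.82 and 0.92 on the log2 scale (adjusted p = 1e-06 and 2.6e-07, limma), and by 0.58, within 1.5-fold, with ATRA after removal of the GC trend. CSF2RA, which lies in a region shared by the sex chromosomes, was not tested. Of 11 granule protein targets 8 were tested. With ATRA 1 was higher and 1 lower, where 6.52% and 2.94% of all tested genes were. With AM80 1 was higher and 0 lower, against 6.41% and 3.76%. Adding the inhibitors to ATRA gave 1 higher and 1 lower, against 8.15% and 11.4%. Adding them to AM80 gave 0 higher and 1 lower, against 6.81% and 8.9%. MMP8, at 8.37 to 36.2 normalized counts over all libraries, was called with both retinoids (0.79 and 0.93). HP, at 5.5 to 28.2, was called on adding the inhibitors to either retinoid (-1.34 and -1.46). Of 10 amino acid response genes, on which C/EBPβ, C/EBPγ and ATF4 can act, all were tested and 1 was higher with each retinoid, DDIT4 by 2.55 and 2.46. With the inhibitors added, 1 was higher with ATRA and 6 with AM80, where 8.15% and 6.81% of all tested genes were higher. Gene by gene, 0 of the 10 were called in the interaction or between the 2 groups with inhibitors. Of all tested genes 0% were called there. Whether the list as a whole differs between the retinoids was not tested. SLC7A11, the cystine transporter, was higher on adding the inhibitors to ATRA and to AM80, by 1.55 and 1.51.

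**Figure D5:**
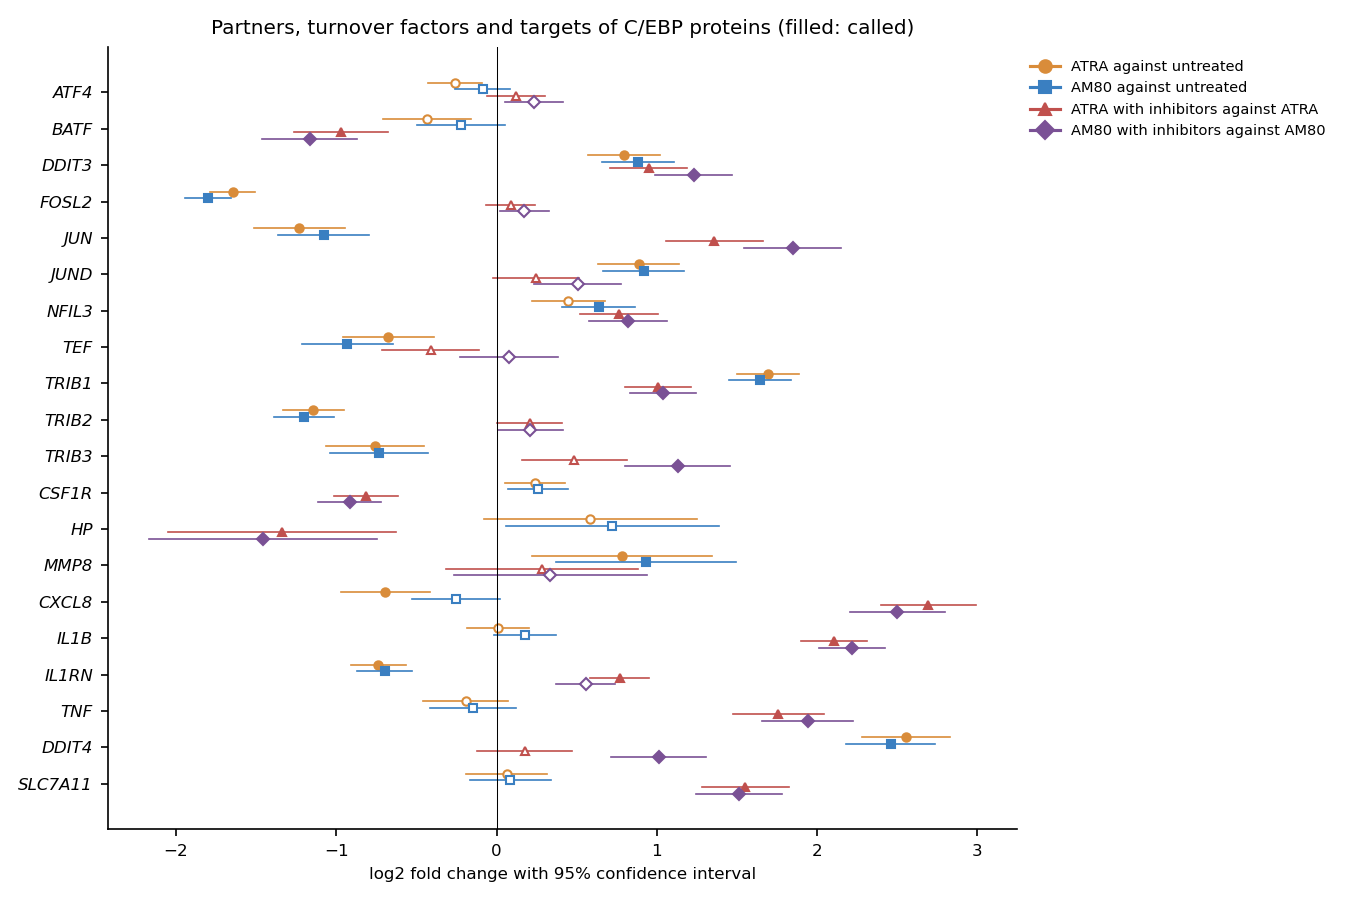
Log2 fold changes (x axis) with 95% confidence intervals of named partner, turnover and target genes with each retinoid against untreated cells and on adding the inhibitors, filled where called. TRIB1 and DDIT3 lie to the right in all 4 comparisons, FOSL2 and TRIB2 lie to the left with the retinoids, and CXCL8, IL1B and TNF lie to the right with the inhibitors.

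The genes whose log2 levels followed each member most closely over the 16 libraries are given as a description, among the 11300 genes whose mean reached 50. The libraries share groups and GC deviations, which can raise such correlations, and by how much was not tested. For CEBPB they were ID1 (Pearson r = 0.99), NCF1C (0.99) and CTSD (0.98). NCF1C is a pseudogene nearly identical to NCF1, so its reads may belong to either. For CEBPA they were CRLS1 (0.97), H1-10 (0.97) and SAPCD2 (0.96), for CEBPD RALY, TRIR and NDUFB11 (0.93 each), for CEBPZ TMEM38B (0.95), TRMT10A (0.95) and SRP72 (0.94), and for CEBPG NIP7 (0.85), RNF175 (0.84) and CTPS1 (0.81). Between members, r over the 16 libraries was largest in size for CEBPA with CEBPD (0.56) and CEBPA with CEBPZ (-0.56). The former is a GC-rich pair and the latter a pair of a GC-rich and a GC-poor gene. CEBPA with CEBPB (-0.14) and CEBPB with CEBPD (-0.13) are GC-rich pairs too.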

How the data were processed

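RNA of OCI-AML3 cells was sequenced in 16 libraries. The authors trimmed reads with cutadapt, aligned them with STAR, counted them per gene with featureCounts and deposited the signal as counts divided by DESeq2 size factors, per the labels and the methods. Genome build, annotation release and strand setting are not given in the sources used here. The labels and the methods name different RNA and library kits.

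Each library's values were whole multiples of 1 step, from which its reads were taken back (100% of values whole within 0.01). Identifiers were matched to gene symbols (62700 of 62700) and to GENCODE release 29 on GRCh38. Normalized counts were put on a log2 scale after adding 1, and genes averaging under 10 were left out. A model with 1 coefficient per group was fitted to all 16 libraries with limma 3.58.1 (R 4.3.3, mean-variance trend), with Benjamini-Hochberg adjustment within each of 9 comparisons. Fold changes are on the log2(value + 1) scale, which understates changes of low genes. Genes were called at an adjusted p under 0.05 and over 1.5-fold. Alternatives were pseudocounts of 0.5 and 5, other filters, quantile normalization, edgeR 4.0.16 (quasi-likelihood) and DESeq2 1.42.0 on the recovered reads, a replicate block and leaving out each library. Removal of a GC trend (spline, 5 degrees of freedom, 97.6% of tested genes with a value) and leaving out AM80 replicate 2 with Untreated replicate 4 were chosen after seeing the data. Promoters were taken from RefSeq (GRCh38.p14), which held 5 of the 6 members. The fits were tested on simulated data.

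The members and all gene lists were chosen with earlier results of these data known. Named genes were all members, DDIT3, ATF4 and TRIB1, up to 3 genes per list with the largest mean rise and fall among those called in the same direction with both retinoids (alone, or on adding the inhibitors), the 3 closest genes by correlation, and neighbours. The COP1, PECAM1, CSF2RA, S100A8 and S100A9 remarks fall outside this rule and were added after their values were seen. Replicates of a group differed by more than sampling noise (chi-square per degree of freedom 2.75 to 25.9 over 18 pairs). A floor of 3 reads covers counting error only.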

Additional observations from a re-analysis of the deposited data

How the results depend on the processing

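The counts of C/EBP genes called kept within 1.5 times for the rest of the 9 comparisons. On adding the inhibitors to ATRA, 1 member was called, 0 after removal of the GC trend and at an adjusted p under 0.01 and over 2-fold, and 2 without a fold limit. On adding them to AM80 it was likewise 1, and 0 after removal of the GC trend and under the stricter limits, and 0 to 1 with each library left out (0 without AM80 replicate 1 or 3). With ATRA and the inhibitors against untreated cells 2 C/EBP genes were called, 1 with the replicate block, after removal of the GC trend, without AM80 replicate 2 and Untreated replicate 4 and under the stricter limits, 4 without a fold limit, and 1 to 2 with each library left out (1 without Untreated replicate 4). With AM80 and the inhibitors against untreated cells it was 1, 2 with quantile normalization and 3 without a fold limit. Without a fold limit 49.3%, 60.2% and 54.7% of all tested genes were called on adding the inhibitors to ATRA and with ATRA or AM80 and the inhibitors against untreated cells, and under the stricter limits 5.1%, 10.7% and 10.1%, with 4.71% on adding the inhibitors to AM80. Each lost call was that of CEBPA, whose change with removal of the GC trend and with single libraries is given above, and the stricter limit of 2-fold alone removes it. Same-numbered replicates did not deviate together (30 pairs, r from -0.11 to 0.19, median -0.005), so the numbers were not taken as pairs, and the block changed no other call of a member.

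Of the fits with 1 library left out, only the lowest and highest value of each fold change entered the following counts. Over the 45 fold changes of members and their alternatives, 533 values kept direction and side, 7 lost and 1 gained the call, and 44 changed sign. None of these was called, and 3, all of CEBPD after removal of the GC trend, passed the adjusted p. For CEBPD these were, with AM80 against untreated cells, 0.0066 with the replicate block, 0.0802 after removal of the GC trend, 0.1744 without AM80 replicate 2 and Untreated replicate 4 and -0.231 to 0.0467 with 1 library left out. Adding the inhibitors gave CEBPD 0.5303 with ATRA after removal of the GC trend, and with AM80 -0.0425 with quantile normalization and -0.1127 without those 2 libraries, and -0.1127 to 0.165 with 1 left out. Against untreated cells CEBPD was at 0.3575 with ATRA and the inhibitors after removal of the GC trend, and with AM80 and the inhibitors at 0.0617 with the replicate block, and without the 2 libraries, at -0.1481 to 0.0617 with 1 left out, and at 0.3702 after removal of the GC trend. Quantile normalization turned the effect of adding the inhibitors to -0.0832 for CEBPB and -0.0433 for CEBPG with ATRA, and to -0.0513 for CEBPG and -0.0921 for CEBPZ with AM80. It turned CEBPZ against untreated cells to -0.0043 with ATRA and -0.0269 with AM80, both with the inhibitors. Removal of the GC trend turned CEBPG to -0.0894 on adding the inhibitors to ATRA and CEBPZ to -0.0627 on adding them to AM80, where 1 library left out gave -0.0088 to 0.0889, and turned CEBPZ to -0.1095 and -0.0059 with ATRA and AM80, each with the inhibitors, against untreated cells. For AM80 against ATRA, leaving out 1 library gave -0.062 to 0.2928 for CEBPA, -0.1226 to 0.1878 for CEBPB and -0.067 to 0.0156 for CEBPG, and quantile normalization gave -0.0196 for CEBPB. With the inhibitors this difference became -0.0141 for CEBPA, -0.0295 for CEBPB, 0.0463 for CEBPG and 0.1036 for CEBPZ after removal of the GC trend, and with 1 library left out -0.0841 to 0.009 for CEBPG and -0.0267 to 0.022 for CEBPZ. The interaction became -0.1883 for CEBPA, -0.1396 for CEBPB, -0.2403 for CEBPD and 0.099 for CEBPG after removal of the GC trend. Without the 2 libraries it was -0.0739 for CEBPA, -0.0156 for CEBPD and 0.0043 for CEBPG, and with 1 left out it was -0.0739 to 0.281 for CEBPA, -0.0156 to 0.2621 for CEBPD and -0.0636 to 0.0331 for CEBPG. For ATF4 the effect of AM80 was 0.001 with the replicate block, -0.1363 to 0.001 with 1 library left out and 0.0097 without the 2 libraries, and that of adding the inhibitors to ATRA was -0.0529 with quantile normalization. The causes of these shifts were not tested.

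Among the other named genes, MMP8 lost its call under 7 settings besides leaving out libraries with ATRA and under 2 with AM80. With 3 or 4 libraries a group and 11963898 to 33789718 reads, the size, and in the comparisons named above the sign, of member changes under 1.5-fold moved with the removal of the GC trend.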
